A study of Bos taurus with 6 samples.

Results

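Glycolysis and hypoxia-induced genes were examined in stromal fibroblasts grown in culture from cow ovaries (Bos taurus). Ovarian stroma is the connective tissue that holds the follicles. The set comprised 40 genes listed by name, chosen with earlier results of these data known. Rows of the expression table were matched by platform gene symbol, and where a gene had several probe sets the one with the highest mean over the 6 samples was taken. This gave 36 of the 40 genes, out of 18010 named genes on the array. PGAM1, LDHB and BNIP3L had only probe sets shared with other gene symbols and were not analysed here. HK1 had 2 probe sets, annotated with its own symbol repeated, and these were left out by the same rule.

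The 3 normal samples (normal 1, 2 and 3, numbered as in their titles) were stromal cells cultured from normal ovary, and the 3 tumor samples came from stromal cells of ovarian tumor. All were grown in DMEM/F12 medium with FKS added and without specific treatment. The labels do not state the type of tumor, the age of the animals, the passage or whether the samples came from separate animals. For that reason the p-values reflect only how far these 6 samples spread, and part or all of that spread may be technical.

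Glycolysis splits glucose into pyruvate, which is turned into lactate or enters the mitochondria. When oxygen is low, the alpha subunits HIF1A and EPAS1 (HIF-2 alpha) escape the prolyl hydroxylases of the EGLN family, which otherwise mark them for destruction, and pair with ARNT to activate genes for glucose uptake, glycolysis, lactate export, pH control and mitochondrial turnover. Most HIF control acts on protein, which arrays do not measure. In the ovary, hypoxia and HIF activity are best known from the growing follicle and the forming corpus luteum.

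Messenger RNA levels are log2 values made by the authors with RMA, so a difference of 1 is a doubling. Sample medians over all probe sets ran from 4.45 to 4.55. Over all probe sets, pairs of normal samples correlated at 0.9832 to 0.9906, pairs of tumor samples at 0.9882 to 0.9909, and a normal with a tumor sample at 0.9541 to 0.9737. As a guide to background, 95% of the group means of 717 olfactory receptor probe sets lay under 3.54. All 10 fibroblast markers examined, among them COL1A1, COL1A2, DCN, LUM and VIM, lay above this level in both groups. Markers of other cells were mixed: PTPRC (leukocytes), KDR (endothelium) and EPCAM (epithelium) lay below it in every sample, but 4 of 10 leukocyte, 7 of 10 endothelial and 6 of 9 epithelial genes had a mean above it in normal cells, and 6 genes of each list did in tumor cells. Of 10 pericyte and smooth muscle genes, 5 did in normal and 6 in tumor cells. The brightest of these were DES (group means 11.88 in normal and 10.79 in tumor cells) and CNN1 (10.11 and 10.34).

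NDUFA4L2, STC1, CA9, SLC2A3, PFKFB3, ADM, ANKRD37 and EPAS1 rose, by 2.07-fold to 34.9-fold, and ENO2 fell 3.48-fold (limma across all genes, Benjamini-Hochberg adjusted p of 0.05 or less). These are 8 of 36 genes higher (22.2%), where 8.56% of all genes were higher, and 1 of 36 lower (2.78%), where 9.44% of all genes were lower. The remaining 27 did not pass. Since the set was chosen with earlier results of these data known, these shares describe it and do not test it. The size of the differences in NDUFA4L2, STC1, CA9 and SLC2A3 rested on normal 1 and normal 3. For NDUFA4L2 the log2 difference was 6.47 without normal 1 and 4.04 without normal 3 (5.12 with all samples). In the same order it was 4.71 and 2.77 for STC1 (3.66) and 4.30 and 2.40 for CA9 (3.19). For SLC2A3 it was 3.02 and 1.46 (2.25). PFKFB3 also rose by 2.25, and its difference changed less than that of SLC2A3 in the same fits. The median difference between tumor and normal was 0.34 (log2) over the 36 genes and 0.02 over all genes. In bulk RNA a difference in the share of cells that express a gene and a difference in transcript per cell cannot be told apart.

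**Figure D1:**
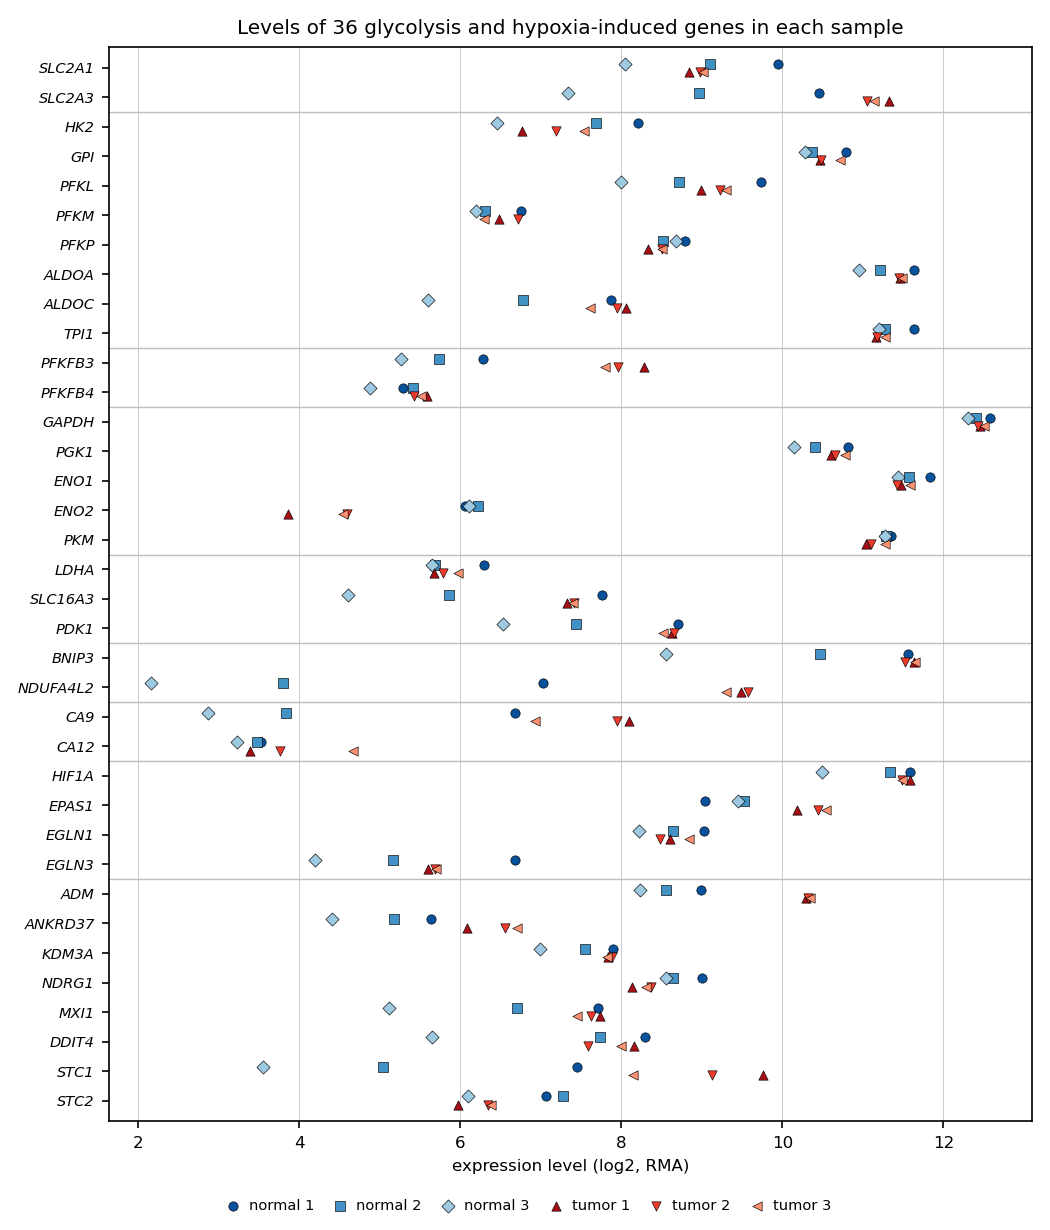
Level of each of the 36 genes (horizontal axis, log2 RMA value) in the 3 normal samples (blue) and the 3 tumor samples (red), 1 row per gene, with grey lines between functional groups. Tumor samples lie close together for most genes, while normal 1 is the highest and normal 3 the lowest normal sample in 31 of 36 genes.

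The counts depended on single samples. Without normal 1, 15 of the 36 genes passed as higher (8.06% of all genes in that fit). Without normal 2 only ADM, EPAS1 and PFKFB3 did (4.86% of all genes). The count was 7 without normal 3 (6.31% of all genes), 5 without tumor 1 (5.41%), 4 without tumor 2 (5.05%) and 5 without tumor 3 (7.06%). ADM, EPAS1 and PFKFB3 passed as higher, and ENO2 as lower, in all 6 of these fits. The 15 genes without normal 1 held the original 8 and added ALDOC, BNIP3, EGLN3, MXI1, PDK1, PFKL and SLC16A3. STC2 joined ENO2 as lower without normal 3 (2 genes, where 7.01% of all genes were lower).

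**Figure D2:**
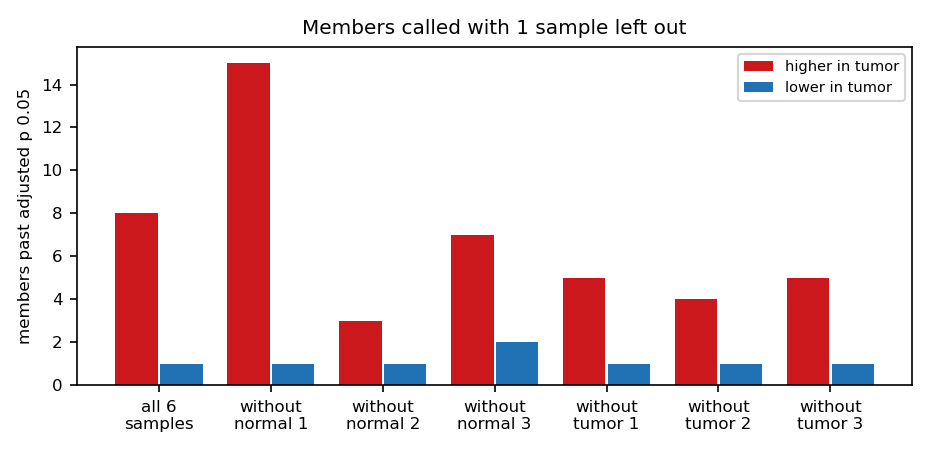
Number of the 36 genes past an adjusted p of 0.05 in limma (vertical axis), higher (red) or lower (blue) in tumor cells, with all 6 samples and with each sample left out in turn. The bar for higher genes is 8 with all samples, 15 without normal 1 and 3 without normal 2.

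Among the regulators, EPAS1 was higher in tumor cells and HIF1A was not distinguishable between the groups. EPAS1 stood at 9.04, 9.52 and 9.45 in normal 1, 2 and 3 and at 10.18, 10.44 and 10.54 in tumor 1, 2 and 3. All tumor samples lay above all normal samples, and the difference was 1.05 ± 0.17 (log2, SE; adjusted p = 0.00513, limma), a 2.07-fold rise. It was also among the few genes of the set in which normal 1 was the lowest normal sample. HIF1A measured 11.58, 11.34 and 10.49 in normal cells and 11.58, 11.49 and 11.49 in tumor cells. Normal 1 fell within the tumor range and normal 3 lay about a doubling below it. The HIF1A difference of 0.38 had a 95% interval from -0.21 to 0.98 (adjusted p = 0.375, limma).

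EGLN1 and EGLN3, the oxygen-sensing hydroxylases that are themselves HIF targets, did not pass. For EGLN1 the difference was 0.01 (95% interval -0.47 to 0.50), and its other probe set gave 0.04. EGLN3 spread over 2.48 log2 units in normal cells, at 6.68, 5.16 and 4.20, against 5.60, 5.68 and 5.70 in tumor cells. Normal 1 thus lay above every tumor sample and normal 2 and 3 below, and the difference of 0.31 had an interval from -0.90 to 1.53.

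The glucose transporters differed in their pattern. SLC2A3 (GLUT3) stood at 10.45, 8.97 and 7.34 in normal cells and at 11.32, 11.05 and 11.14 in tumor cells. The groups did not overlap, and tumor cells were higher by 2.25 ± 0.65 (log2, SE), a 4.76-fold rise that only just passed (adjusted p = 0.0494, limma). It was lost with quantile normalization (adjusted p = 0.0585) or a robust prior (0.0505), and without normal 2 or any 1 of the tumor samples (0.112 to 0.131). SLC2A1 (GLUT1), the widely expressed transporter, measured 9.94, 9.10 and 8.05 in normal cells and 8.84, 8.98 and 9.02 in tumor cells. Normal 1 and normal 2 exceeded every tumor sample and normal 3 was below them all, which left a mean difference of -0.08 (95% interval -1.02 to 0.85).

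None of the 8 measured enzymes from hexokinase to triose phosphate isomerase passed in limma, and 0 of them had an unadjusted p under 0.05, although PFKL and ALDOC passed without normal 1 and ALDOC with array weights. HK2, the inducible hexokinase, ranged from 6.46 to 8.21 in normal cells and from 6.77 to 7.53 in tumor cells, and PFKL, the liver-type phosphofructokinase, from 8.0 to 9.73 and from 8.99 to 9.30. Both were highest in normal 1 and lowest in normal 3. The housekeeping steps moved little: the differences for GPI, PFKM, PFKP, ALDOA and TPI1 lay between -0.22 and 0.20, and none of their 95% intervals reached beyond -0.50 or 0.60. ALDOC, the aldolase best known from brain, stood at 7.87, 6.78 and 5.60 in normal cells and at 8.06, 7.94 and 7.61 in tumor cells. Normal 1 was within the tumor range, and the difference of 1.12 ± 0.49 did not pass (adjusted p = 0.164, limma). Without normal 1 it was 1.68 (adjusted p = 0.0159), and with array weights the adjusted p was 0.039.

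PFKFB3, which makes fructose 2,6-bisphosphate, the strongest activator of phosphofructokinase, had one of the clearest differences. Its levels were 6.28, 5.74 and 5.26 in normal cells and 8.28, 7.96 and 7.80 in tumor cells. The lowest tumor sample exceeded the highest normal sample by more than the range within either group. The rise was 2.25 ± 0.25 (log2, SE; 4.77-fold; adjusted p = 0.0012, limma), and the adjusted p stayed at 0.00854 or less with any 1 sample left out. PFKFB4, its relative with higher bisphosphatase activity, differed by 0.32 (95% interval -0.04 to 0.68; adjusted p = 0.217), although its tumor samples, at 5.59, 5.43 and 5.51, lay just above the highest normal sample at 5.41.

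The enzymes of lower glycolysis were level, with the exception of ENO2. GAPDH stood at 12.58, 12.40 and 12.30 in normal cells and at 12.45, 12.43 and 12.50 in tumor cells, a difference of 0.03 (95% interval -0.24 to 0.30). GAPDH has many processed copies in mammalian genomes, and a second, dim probe set under this symbol differed by -0.25. PGK1, the phosphoglycerate kinase, measured 10.82, 10.41 and 10.14 against 10.60, 10.65 and 10.78, and its difference was 0.22 (interval -0.19 to 0.63). ENO1 and PKM, the main enolase and the pyruvate kinase of most tissues, differed by -0.12 and -0.17 (intervals -0.43 to 0.19 and -0.43 to 0.10).

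ENO2, the gamma enolase known as the neuronal form, was the only gene of the set that fell with all samples in the fit. It stood at 6.06, 6.22 and 6.11 in normal cells and at 3.86, 4.59 and 4.54 in tumor cells. All tumor samples lay below all normal samples, with a fall of 1.80 ± 0.20 (log2, SE; adjusted p = 0.00111, limma). The normal samples spread over only 0.16 log2 units. Normal 2 was the highest and normal 1 the lowest of them, so ENO2 lacked the order of normal samples seen in most of the set.

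At the branch between lactate and mitochondrial oxidation, 3 genes were measured and none passed in limma, with 0 at an unadjusted p under 0.05. PDK1 and SLC16A3 passed with array weights (adjusted p = 0.0303 and 0.047). SLC16A3 (MCT4), the lactate exporter, stood at 7.76, 5.86 and 4.60 in normal cells and at 7.32, 7.41 and 7.40 in tumor cells. PDK1, the kinase that shuts off pyruvate dehydrogenase, stood at 8.70, 7.44 and 6.53 against 8.63, 8.66 and 8.52. In both genes normal 1 lay above every tumor sample and normal 2 and 3 lay below them. The differences were 1.30 ± 0.66 for SLC16A3 and 1.05 ± 0.46 for PDK1 (adjusted p = 0.235 and 0.169, limma), and without normal 1 they were 2.15 and 1.62 (adjusted p = 0.00708 and 0.00759). LDHA, the lactate dehydrogenase subunit induced by HIF, measured 6.29, 5.68 and 5.65 against 5.67, 5.79 and 5.97. Its difference was -0.06 (interval -0.50 to 0.38), and normal 1 was above every tumor sample. The LDHA group means, 5.87 in normal and 5.81 in tumor cells, lay far below those of PGK1 (10.46 and 10.68) and GAPDH (12.43 and 12.46). Whether this probe set reads the main LDHA transcript was not tested.

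NDUFA4L2, a mitochondrial HIF target that lowers the use of oxygen by the respiratory chain, had the largest difference in the set. It stood at 7.03, 3.80 and 2.16 in normal cells and at 9.49, 9.57 and 9.30 in tumor cells. The groups did not overlap, but the normal samples alone spanned 4.87 log2 units, the third widest normal range of the 18010 genes. The rise was 5.12 ± 1.03 (log2, SE; 95% interval 2.75 to 7.50; adjusted p = 0.013, limma), and it lost its call without normal 2 (adjusted p = 0.0536). Normal 3 lay under the background guide. Its relative NDUFA4, a subunit of cytochrome c oxidase, fell by 1.02 ± 0.14 (adjusted p = 0.00261, limma), from 9.17, 9.27 and 9.34 to 8.28, 8.01 and 8.42. NDUFA4L2 is also used as a pericyte marker. Of the 10 pericyte and smooth muscle markers, KCNJ8 and HIGD1B were under the background guide in every sample, as was MCAM, while RGS5 measured 3.31, 3.06 and 2.80 in normal 1 to 3 and 4.20, 3.60 and 3.41 in tumor 1 to 3. NOTCH3 and MYH11 rose by 1.42 and 1.92 and ABCC9 by 1.26 with both group means under the guide, while CSPG4 and DES fell by 0.75 and 1.10 (limma, adjusted p of 0.05 or less). With 1 sample left out CSPG4 passed in every fit, DES was lost without normal 2 (adjusted p = 0.0549), and NOTCH3, MYH11 and ABCC9 were each lost in some fits (adjusted p up to 0.0658, 0.0866 and 0.111). CNN1 differed by 0.23 and did not pass (adjusted p = 0.425, limma). The part of these markers in the NDUFA4L2 difference was not tested.

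BNIP3, which directs mitochondria to autophagy, stood at 11.56, 10.47 and 8.55 in normal cells and at 11.64, 11.52 and 11.65 in tumor cells. Normal 1 was within the tumor range, normal 3 was 3.05 log2 units below the tumor mean, and the difference of 1.41 ± 0.64 did not pass (adjusted p = 0.18, limma). Without normal 1 it was 2.09 (adjusted p = 0.0275).

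The carbonic anhydrases act outside the cell and help it to dispose of acid. CA9, a classic HIF target, stood at 6.68, 3.83 and 2.87 in normal cells and at 8.09, 7.94 and 6.93 in tumor cells. Normal 3 lay under the background guide. The lowest tumor sample exceeded normal 1 by little, so the groups were barely apart. CA9 rose by 3.19 ± 0.86 (log2, SE; adjusted p = 0.0387, limma), but this call held in only 1 of the 6 fits that left out a sample, the one without normal 1 (adjusted p 0.0627 to 0.129 in the others). CA12 had a normal mean under the background guide, at 3.52, 3.48 and 3.23, and stood at 3.39, 3.76 and 4.67 in tumor cells, and its difference of 0.53 had an interval from -0.16 to 1.22.

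Secreted peptides gave both a firm and an uneven difference. ADM, the vasodilator adrenomedullin, stood at 8.99, 8.56 and 8.23 in normal cells and at 10.29, 10.32 and 10.34 in tumor cells. The tumor samples were almost identical and all above normal, with a rise of 1.72 ± 0.19 (log2, SE; 3.3-fold; adjusted p = 0.00106, limma). STC1, the glycoprotein stanniocalcin 1, stood at 7.45, 5.04 and 3.55 in normal cells and at 9.76, 9.13 and 8.14 in tumor cells. It varied widely in both groups, although they did not overlap. It rose by 3.66 ± 0.88 (adjusted p = 0.0259, limma), a call lost without normal 2, tumor 1 or tumor 2 (adjusted p = 0.0885, 0.0866 and 0.0803). STC2, its paralogue, is also induced by endoplasmic reticulum stress. It measured 7.07, 7.27 and 6.09 against 5.97, 6.34 and 6.38, and the difference of -0.58 ± 0.29 did not pass (adjusted p = 0.232; 0.0137 without normal 3 and 0.0252 with array weights).

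Of the remaining hypoxia-induced genes, ANKRD37, which encodes an ankyrin repeat protein, passed. It stood at 5.64, 5.17 and 4.41 in normal cells and at 6.08, 6.55 and 6.70 in tumor cells, without overlap, and rose by 1.37 ± 0.31 (log2, SE; adjusted p = 0.0196, limma). The call was lost without normal 2, tumor 2 or tumor 3 (adjusted p = 0.0585, 0.0685 and 0.0644). MXI1, an antagonist of MYC, stood at 7.71, 6.70 and 5.11 against 7.74, 7.62 and 7.45. DDIT4 (REDD1), an inhibitor of mTORC1, stood at 8.29, 7.73 and 5.65 against 8.16, 7.58 and 7.99. Normal 3 stood at -2.49 from the tumor mean in MXI1 and at -2.26 in DDIT4, and normal 1 lay within the tumor range in MXI1 and above it in DDIT4. Neither passed (adjusted p = 0.229 and 0.507, limma), and MXI1 did without normal 1 (adjusted p = 0.0316). The histone demethylase KDM3A differed by 0.36 (interval -0.13 to 0.86). The stress-responsive gene NDRG1 was lower in all tumor samples, by -0.46 ± 0.15, just short of the threshold (adjusted p = 0.07; 0.0492 with a mean-variance trend and 0.0444 with array weights).

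**Figure D3:**
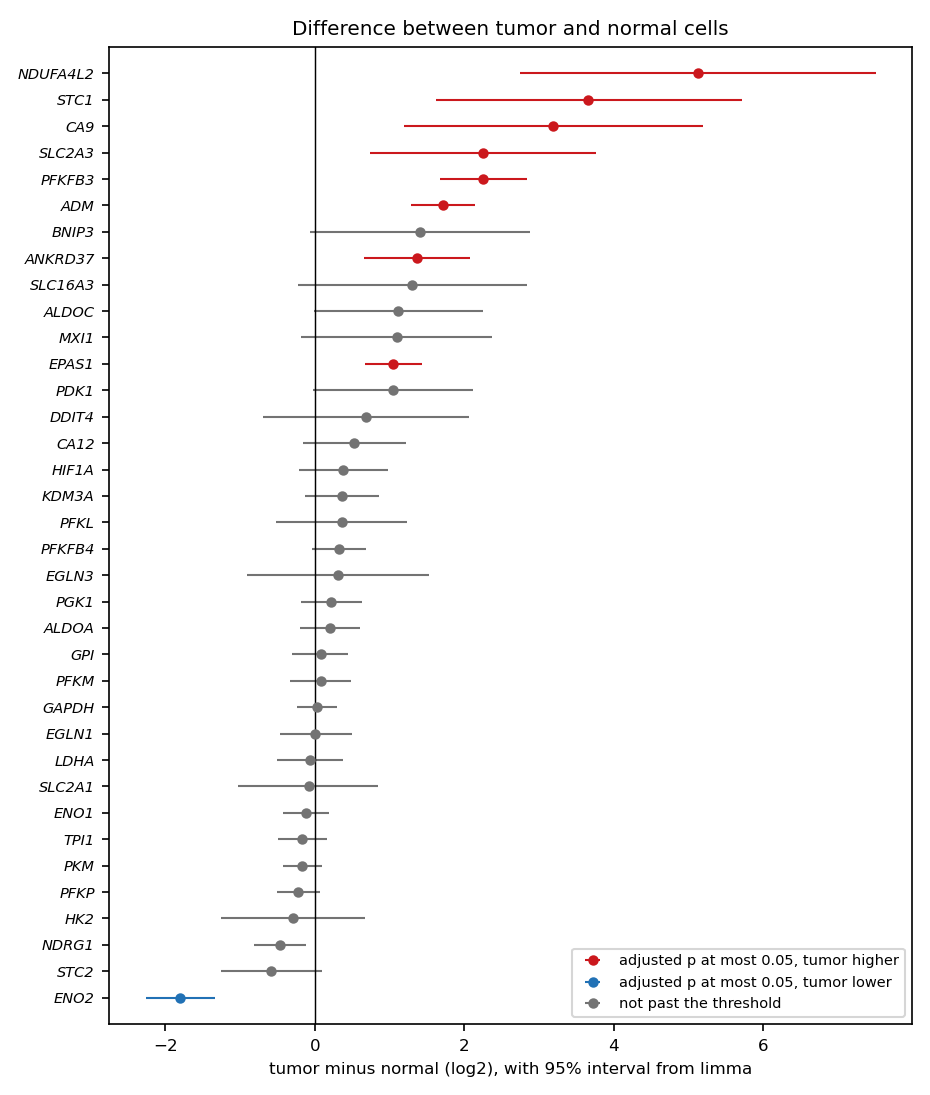
Difference between tumor and normal cells for each of the 36 genes (horizontal axis, log2) with its 95% interval from limma, ordered by size. The 8 genes in red and ENO2 in blue passed an adjusted p of 0.05, and the widest intervals belong to NDUFA4L2, STC1 and CA9.

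In 33 of 36 genes (91.7%) the SD was larger over the normal than over the tumor samples, against 53.2% of all genes. ENO2, PKM and CA12 were the exceptions. The median range was 0.97 log2 units over the normal and 0.26 over the tumor samples, against 0.31 and 0.29 over all genes. The fit takes 1 spread for both groups, so the normal samples set most of the error of these genes. The comparison of spreads has 3 samples a group and is given as a description, without a test.

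**Figure D4:**
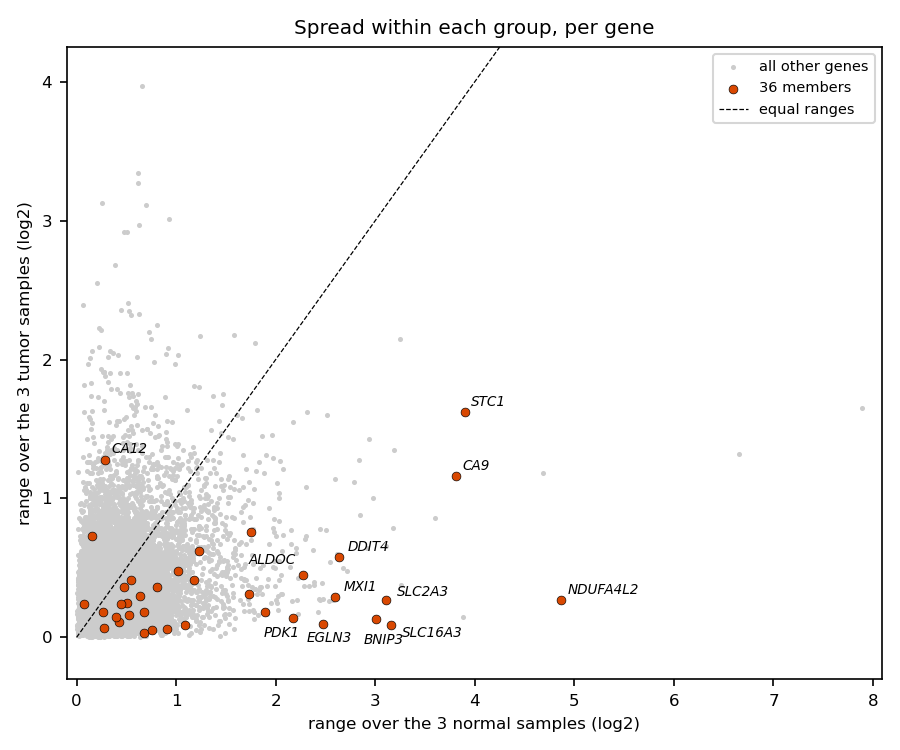
Range over the 3 normal samples (horizontal axis, log2) against the range over the 3 tumor samples (vertical axis, log2) for each gene, with the 36 genes in orange, all other genes in grey and a dashed line where both are equal. NDUFA4L2, STC1 and CA9 lie far to the right, and SLC16A3, SLC2A3 and BNIP3 combine a normal range above 3 with a tumor range under 0.3.

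A normal range of 2 or more, a 4-fold spread, was found in 11 of the 36 genes (30.6%) and in 79 of all 18010 genes (0.439%), so the 11 made up 13.9% of those 79. They were NDUFA4L2, STC1, CA9, SLC16A3, SLC2A3, BNIP3, DDIT4, MXI1, EGLN3, ALDOC and PDK1. The 36 genes were brighter (sample medians 6.76 to 8.49) than all genes (5.02 to 5.06), and RMA compresses values near background. Here and in the other shares, the set is thus compared with dimmer genes. Between the highest and the lowest normal sample STC1 spanned 14.9-fold, with normal 3 (3.55) at the background guide of 3.54. The measured values of NDUFA4L2 and CA9 spanned 29.2-fold and 14-fold, with normal 3 under the guide in both. The folds of STC1, NDUFA4L2 and CA9 are therefore not exact. In SLC16A3 the normal range was 8.94-fold while the tumor samples lay within 0.09 log2 units. No gene of the set reached a range of 2 in tumor cells, and the widest there were STC1 (1.62), CA12 (1.28) and CA9 (1.16).

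The normal samples took the same order in gene after gene. Normal 1 was the highest of the 3 in 32 of 36 genes (35.7% of all genes) and normal 3 the lowest in 33 (39% of all genes). Both held in 31 genes (86.1%), against 22.9% of all genes. EPAS1, ENO2, PFKFB4, STC2 and PFKP did not follow it. Genes of the set share each sample, so these counts describe 3 cultures and do not give independent observations.

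Set against the tumor samples, normal 1 was above all 3 of them in 22 genes, within their range in 5 and below in 9. Normal 2 was above in 8, within in 6 and below in 22. Normal 3 was above in 3, within in 4 and below in 29. Over all genes the share below the tumor samples was 30.7% for normal 1, 32.9% for normal 2 and 37.1% for normal 3, and the share above them was 32%, 32.4% and 32.2%. The median distance from the tumor mean over the 36 genes was 0.16 for normal 1, -0.26 for normal 2 and -0.88 for normal 3. Normal 3 was at least 1 log2 unit below the tumor mean in 16 genes (44.4%, against 4.71% of all genes) and normal 1 in 5 (13.9%, against 3.35%), namely PFKFB3, NDUFA4L2, EPAS1, ADM and STC1.

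**Figure D5:**
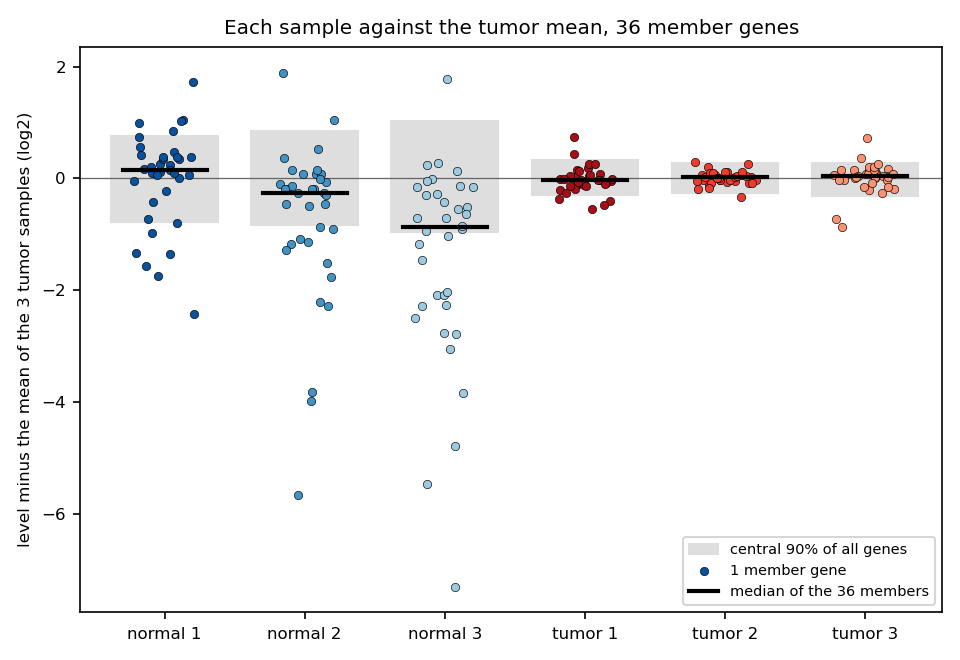
Level of each of the 36 genes in each sample minus the mean of the 3 tumor samples (vertical axis, log2), with the median as a black bar and the central 90% of all genes as a grey box; tumor samples are set against a mean that includes them. The medians are 0.16, -0.26 and -0.88 in normal 1, 2 and 3.

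The genes showed several patterns by where the normal samples lay. In 9 genes, the 8 that passed and PFKFB4, every tumor sample was above every normal sample (17.6% of all genes). In 4 genes, ALDOC, BNIP3, HIF1A and MXI1, normal 1 was within the tumor range and the other normal samples below it. In 9 genes, GPI, PFKL, ALDOA, GAPDH, PGK1, SLC16A3, PDK1, EGLN3 and KDM3A, normal 1 was above the tumor samples and the others below. SLC2A1 and HK2 had normal 1 and normal 2 above and normal 3 below. Only PFKP, ENO2 and NDRG1 were lower in every tumor sample than in any normal sample (18.1% of all genes). In the other 9 of the 36 genes at least 1 of normal 2 and normal 3 lay within the tumor range.

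Growth state differed between the samples too. Of 17 measured mitotic genes 15 fell in tumor cells (88.2%, where 9.44% of all genes were lower). Without normal 2, CCNA2, BUB1, TPX2, UBE2C and BIRC5 lost this call (limma, adjusted p 0.0526 to 0.0826). Mean levels over the 17 were 7.37, 7.46 and 8.33 in normal 1, 2 and 3 and 5.79, 6.64 and 6.42 in tumor 1, 2 and 3. Normal 3 was the highest normal sample in all 17 of them, where it was the lowest in 33 of the 36 glycolysis and hypoxia genes. Of the marker lists for other cells, the summed level (log2 of the sum of linear values) was 7.0 to 7.34 in normal and 7.77 to 8.06 in tumor samples for 10 leukocyte genes, 7.91 to 8.05 and 8.89 to 9.63 for 10 endothelial genes, and 12.14 to 12.40 and 11.27 to 11.97 for 10 pericyte and smooth muscle genes. It was 7.76 to 8.84 and 7.13 to 7.15 for 9 epithelial genes, 9.90 to 10.01 and 9.13 to 9.79 for 6 granulosa genes, and 5.37 to 6.08 and 6.47 to 7.43 for 4 erythroid genes. Each sum is carried by its brightest genes. EMCN (group means 7.19 in normal and 8.88 in tumor cells) led the endothelial sum. It rose, as did TIE1 (2.46 and 2.93, both under the background guide), 20% of the list where 8.56% of all genes were higher. The other 8 endothelial genes, PECAM1, CDH5 and KDR among them, did not pass. DES (11.88 and 10.79) led the pericyte and smooth muscle sum, in which 3 genes rose (30%) and 2 fell (20%). Of all genes 8.56% were higher and 9.44% lower. CD68 (5.26 and 6.41) and LAPTM5 (2.78 and 5.21) rose among the leukocyte genes, and KRT18 (7.14 and 4.36), KRT19 (6.03 and 3.98) and KRT8 (4.98 and 3.92) fell among the epithelial genes. With 1 sample left out, KRT8 passed only without normal 3 (limma, adjusted p 0.08 to 0.135 in the other fits). TIE1 passed only without normal 1 (0.057 to 0.115 in the others). FST (9.84 and 9.40, not past the test) led the granulosa sum and HBA (4.62 and 6.48) the erythroid sum. FOXL2 (5.04 and 3.35, the tumor mean under the background guide) fell, as the only 1 of the 6 granulosa genes that passed. These genes were named after their values were seen. The part of growth state or of these cells in the results was not tested.

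A wider list of 38 measured genes of the hypoxia response, none of them in the set, was examined next. It too was chosen with earlier results of these data known. In this list 10 rose (26.3%, where 8.56% of all genes were higher) and 1 fell (2.63%, where 9.44% were lower). The median difference was 0.30. Of those that rose, RORA, ANGPTL4, ARNT2 and BHLHE40 passed in every fit with 1 sample left out. P4HA1, PLOD2, ERO1A and FUT11 passed only in the fit without normal 1 (limma, adjusted p up to 0.159 in the others). RORA, a nuclear receptor, stood at 6.66, 5.66 and 4.88 in normal cells and at 8.0, 8.0 and 8.13 in tumor cells, a rise of 2.31 ± 0.38 (log2, SE; adjusted p = 0.00633, limma). ANGPTL4, an inhibitor of lipoprotein lipase, rose by 2.24 ± 0.35, from 6.22, 5.12 and 5.78 to 8.32, 7.24 and 8.27. The taurine transporter SLC6A6 rose by 1.76 ± 0.41 and the transcription factor ZNF395 by 1.24 ± 0.33 (adjusted p = 0.0221 and 0.038, limma), and both lost their call in several fits with 1 sample left out (adjusted p up to 0.0678 and 0.112). The gene that fell was TFRC, the transferrin receptor (-0.83 ± 0.14), named after its value was seen. VEGFA, also chosen after its values were seen, stood at 10.97, 10.50 and 9.73 against 11.14, 11.43 and 11.37 and did not pass (adjusted p = 0.0628, limma).

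Normal 1 was highest and normal 3 lowest in 24 of the 38 genes (63.2%), against 22.9% of all genes, and 14 had a normal range of 1 or more while 3 had such a range in tumor cells. Among 23 further genes of glycolysis, mostly isoenzymes and transporters used in other tissues, the order held in 8 (34.8%). It held in 8 of 20 genes of gluconeogenesis and the branches of glycolysis (40%), in 2 of 11 genes of pyruvate entry into mitochondria (18.2%) and in 6 of 10 fibroblast markers (60%).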

How the data were processed

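Biotin-labelled RNA of 6 bovine samples was hybridised to microarrays, with 3 samples a group. Groups and replicate numbers came from the sample titles. The authors deposited 1 log2 value per probe set and sample. The submitters' processing notes name RMA, a method that corrects background, normalizes by quantiles and summarises the probes of a set. Its version and settings are not given in the sources used, and scanner files, detection calls and scan batches were not used here. RMA values are compressed near background, which understates folds of dim genes. The table held 24415 probe sets, of which 18457 had 1 gene symbol in the platform annotation and 5270 were unnamed here. Another 688 listed several symbols, in some the same symbol repeated, as for HK1, and were not used. Precision is limited by having 3 arrays a group.

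Tumor was compared with normal by limma 3.58.1 in R 4.3.3 (lmFit, eBayes, two-sided, no covariates) on 18010 genes with 1 probe set each (the brightest; 401 genes had over 1), with Benjamini-Hochberg adjustment over all of them and a threshold of 0.05. Errors after ± are standard errors. Differences are tumor minus normal on the log2 scale. The fit was tested on simulated data with the same spread in both groups of a gene. Unequal spreads, as in most genes of the set, were not covered by it. Genes given with all their values were those that passed, the 8 others with the largest difference, the 8 with the widest normal range, and GAPDH, HIF1A, EPAS1, LDHA, SLC2A1, PGK1, PDK1 and CA9. From each wider pathway list, up to 4 genes that passed with the largest difference were described. The other genes of the hypoxia list that rose were named after their values were seen. The members and lists were chosen with earlier results of these data known. No sequences are shown.

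Same-numbered normal and tumor samples did not deviate together (correlations of deviations from the group means of 0.0498, -0.0771 and 0.073 over genes), so the numbers were not taken as pairs. Alternatives were array weights, a robust prior, a prior with a mean-variance trend, the replicate number as a block, renewed quantile normalization, centring on the median, removal of dim probe sets, averaged probe sets per gene, thresholds of 0.01 and 0.1, and each sample left out.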

Additional observations from a re-analysis of the deposited data

How the results depend on the processing

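With each sample left out in turn, the number of the 36 genes higher in tumor cells ran from 3 to 15, the number lower from 1 to 2, the median difference from 0.05 (without normal 3) to 0.58 (without normal 1), the number of genes more variable in normal cells from 27 to 34, and the number of all genes called from 1765 to 3226 (3242 with all samples). An adjusted p of 0.01 gave 3 higher genes and 1297 of all genes, and one of 0.1 gave 2 lower genes. The number higher was 7 with quantile normalization or a robust prior and 11 with array weights, which called 5054 of all genes. The number lower was 2 with a mean-variance trend and 3 with array weights. With the replicate block the counts were 8 higher and 1 lower, the same genes as without it. The medians with quantile normalization and median centring were 0.31 and 0.32. No gene that passed changed direction under any alternative tried. Their groups did not overlap, so leaving out a sample, weighting the arrays or changing the prior or threshold could not turn the sign. Among genes that did not pass, the sign turned in some fits with 1 sample left out. With each sample left out the differences ran from -0.57 to 0.37 (positive without normal 1) for SLC2A1, -0.79 to 0.09 (positive without normal 1) for HK2 and -0.18 to 0.14 (positive without normal 1 and, at 0.01, without tumor 1) for LDHA. They ran from -0.02 (without normal 3; -0.005 without tumor 3) to 0.23 for GPI, -0.05 to 0.81 for PFKL, -0.03 (without normal 3 or tumor 2) to 0.24 for PFKM, -0.03 to 0.11 for GAPDH, -0.19 (-0.08 without tumor 3) to 0.21 for EGLN1, -0.26 to 0.98 for EGLN3 and -0.10 to 1.22 for DDIT4, the lowest each without normal 3. The sign also turned with array weights for LDHA (0.06) and EGLN1 (-0.04), with median centring for EGLN1 (-0.01) and with the mean of both probe sets for GAPDH (-0.11). Leaving out samples leaves fewer of them to estimate the spread; the cause of the other changes was not tested.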

Other observations

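Genes around pyruvate and the branches of glycolysis changed in both directions. Of 11 measured genes of pyruvate entry into mitochondria, 2 rose and 2 fell (8.56% of all genes were higher and 9.44% lower). MPC1, a subunit of the mitochondrial pyruvate carrier, fell by 1.35 ± 0.13 (log2, SE; adjusted p = 0.000745, limma), from 8.85, 9.15 and 9.11 in normal to 7.57, 7.65 and 7.85 in tumor cells. PDHX, a component of the pyruvate dehydrogenase complex, fell by 0.64 ± 0.13. PDK3, a kinase that inhibits the complex, rose by 0.99 ± 0.14 (adjusted p = 0.00293, limma), and the phosphatase PDP2, which reactivates it, by 0.46 ± 0.12 (adjusted p = 0.0333, and 0.0462 to 0.112 with 1 sample left out). The normal samples of MPC1 and PDK3 lay within 0.30 log2 units of each other.

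Of 20 measured genes of gluconeogenesis, the pentose phosphate pathway, glycogen and hexosamine synthesis, 2 rose (10%) and 6 fell (30%). Of all genes 8.56% were higher and 9.44% lower. GFPT1, the entry enzyme of hexosamine synthesis, rose by 1.27 ± 0.15 (log2, SE; adjusted p = 0.00163, limma), and UGP2, which makes UDP-glucose, by 0.81 ± 0.17 (adjusted p = 0.0162; lost without normal 2, tumor 1 or tumor 3). The pentose phosphate enzymes TALDO1 and PGLS fell by 0.86 ± 0.16 and 0.77 ± 0.12 (adjusted p = 0.00859 and 0.00482, limma). Among 23 further genes of glycolysis 2 rose and 2 fell (8.7% each), near the shares of all genes. SLC2A6 fell by 1.01 ± 0.14 (adjusted p = 0.00329, limma). SLC2A12 (0.60, with both group means under the background guide of 3.54), PGM3 (0.54) and PFKFB2 (-0.60) passed with all samples. They did not pass in 4 to 6 of the 6 fits that left out a sample.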
